A study of Penaeus merguiensis with 6 samples.

Results

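In the hepatopancreas of the banana shrimp Penaeus (Fenneropenaeus) merguiensis, 220 of 57303 assembled genes (0.384%) had a mean of at least 1000 FPKM over the 6 libraries, and these dominant genes are described here. FPKM, a unit for RNA-seq levels, corrects a fragment count for transcript length and library size. The genes were chosen by that mean alone, so their high level is a description and not a finding. The mean was taken over both groups: 202 of the 220 had a mean of at least 1000 FPKM in controls and in cadmium libraries, 11 fell below it in controls and 7 with cadmium. All 220 passed the filter on low values (at least 1 FPKM in at least 3 libraries), as did 19862 genes of the table.

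The study exposed shrimp for 72 hours to cadmium chloride at 0.5 mg/L cadmium, given in the design text as the concentration lethal to the median animal over that time, or kept them at 0 mg/L. Each condition has 3 libraries, numbered 1 to 3. The design text describes replicate tanks for each concentration, but is silent on the tank and number of shrimp behind each library, so p-values here reflect the spread among the 6 libraries, part of which may be technical.

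The crustacean hepatopancreas, also called the midgut gland, makes and secretes digestive enzymes, absorbs nutrients, stores lipid and glycogen, and takes up and binds metals. Its tubules hold several cell types: dividing embryonic cells at the tip, fibrillar and blister-like cells that make and release enzymes, and resorptive cells that store reserves and metals. Secretory organs commonly devote much of their messenger RNA to a small set of products. Cadmium is a metal with no known role in crustaceans that binds thiol groups. In a de novo assembly, where transcripts are built from the reads without a genome, one transcript can be split into several assembled genes, and ribosomal and mitochondrial RNA can appear beside messenger RNA. The IDs are not paired with gene names or sequences here (0 of 57303), so no dominant gene can be given a product, no marker of the tissue can be checked, and the genes are called by ID or by rank of mean FPKM.

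Controls 1 and 3 were the libraries most often lowest among the dominant genes. Control 1 was the lowest of the 6 libraries for 86 of the 220 genes and control 3 for 58, against 11 to 25 genes for each of the other 4. These counts do not say how far below the others a library lay, and were not taken over all tested genes. Of the 86 genes, 27 belong to the group of 55 described below, in which most genes varied little. In a bulk library, fewer cells of a type and less RNA per cell cannot be told apart. Total FPKM was lowest in cadmium 1 (1702598) and highest in control 2 (2003399), and since no fragment counts come with the values, the depth behind each is unknown.

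The dominant genes held about 3 parts in 4 of the FPKM of every library. Their share was 80.0% in control 1, 81.5% in control 2 and 73.4% in control 3, and 74.3%, 76.3% and 76.3% in cadmium 1, 2 and 3. The means were 78.3% ± 4.29 (SD, n = 3) in controls and 75.7% ± 1.13 (SD, n = 3) with cadmium, and the groups overlapped, with control 3 below every cadmium library. Between 18 genes (control 1) and 43 genes (cadmium 1) were enough to reach 50% of a library's FPKM, and between 131 (control 1) and 217 (cadmium 1) to reach 75%.

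The make-up of that share differed more than its size. The 5 highest genes took 40.3% of FPKM in control 1, 26.8% in control 2 and 32.8% in control 3, against 25.04%, 28.3% and 23.4% in cadmium 1, 2 and 3. Ranks 6 to 20 ran the other way in control 1, with 8.82% there, 14.5% in control 2 and 10.4% in control 3, and 13.3%, 14.2% and 16.3% in the cadmium libraries. Ranks 21 to 50 held 8.80% (control 3) to 16.0% (control 2) in controls and 12.0% to 13.4% with cadmium. The 50 genes after these held 9.87% to 12.6%, and the last 120 genes 9.63% to 12.9%, over all 6 libraries. Without the 5 highest genes, the other 215 held 45.0% ± 8.39 (SD, n = 3) in controls and 50.1% ± 2.55 (SD, n = 3) with cadmium. In each of the tiers the controls were spread more widely than the cadmium libraries.

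**Figure D1:**
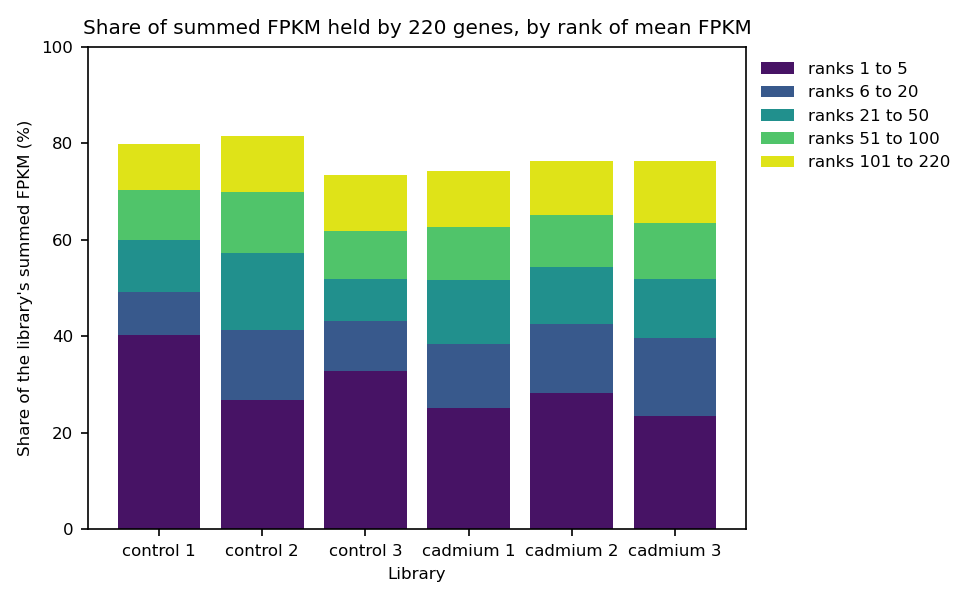
Stacked bars give the share of each library's summed FPKM (%) held by the 220 dominant genes, divided into 5 tiers by rank of mean FPKM over the 6 libraries. The lowest bar (ranks 1 to 5) is largest in control 1, at 40.3%, where ranks 6 to 20 are smallest, at 8.82%.

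Levels fell steeply with rank. The mean FPKM ran from 198563 at rank 1 to 1004 at rank 220, with a median of 2609. Of the 220 genes, 21 had a mean of more than 10-fold the minimum and 84 a mean below 2000 FPKM. Just inside the minimum, ranks 216 to 220 had means of 1031, 1021, 1013, 1009 and 1004 FPKM, and just outside it the next 5 genes had means of 986, 981, 980, 976 and 971 FPKM. A further 77 genes reached 1000 FPKM in at least 1 library without a mean that high. Within the 220, 129 were at or above 1000 FPKM in all 6 libraries.

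The top of the order was the same in every library. TR431_c25_g2 was first and TR431_c25_g3 second in all 6. TR431_c25_g2 read 273856, 197285 and 212187 FPKM in controls 1 to 3 and 164223, 190160 and 153670 FPKM in cadmium 1 to 3. Every cadmium library lay below every control, and control 1 was highest. TR15793_c0_g1 and TR15379_c0_g3 held places 3 and 4 in 5 libraries and the reverse in control 1, and TR15793_c0_g2, of rank 5 by mean, held places 5 to 10. Below these the order moved more: of the 50 highest genes by mean, 32 (control 3) to 43 (cadmium 1 and cadmium 2) were among the 50 highest of a single library.

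The rank order of the 220 genes was shared least by control 3. Spearman's rho across the 220 genes lay between 0.29 and 0.60 for the 5 pairs of libraries that include control 3 and between 0.62 and 0.92 for the 10 other pairs. The highest value belonged to cadmium 1 and cadmium 2. For these 2 libraries, 204 of the 220 genes were within 2-fold of each other, while between cadmium 3 and control 1 only 124 were. These values are across genes, which are not replicates, and each library enters several pairs. Among 688 genes with a mean of 100 to 1000 FPKM, rho was 0.46 to 0.61 for pairs with control 3 and 0.58 to 0.79 for the others.

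**Figure D2:**
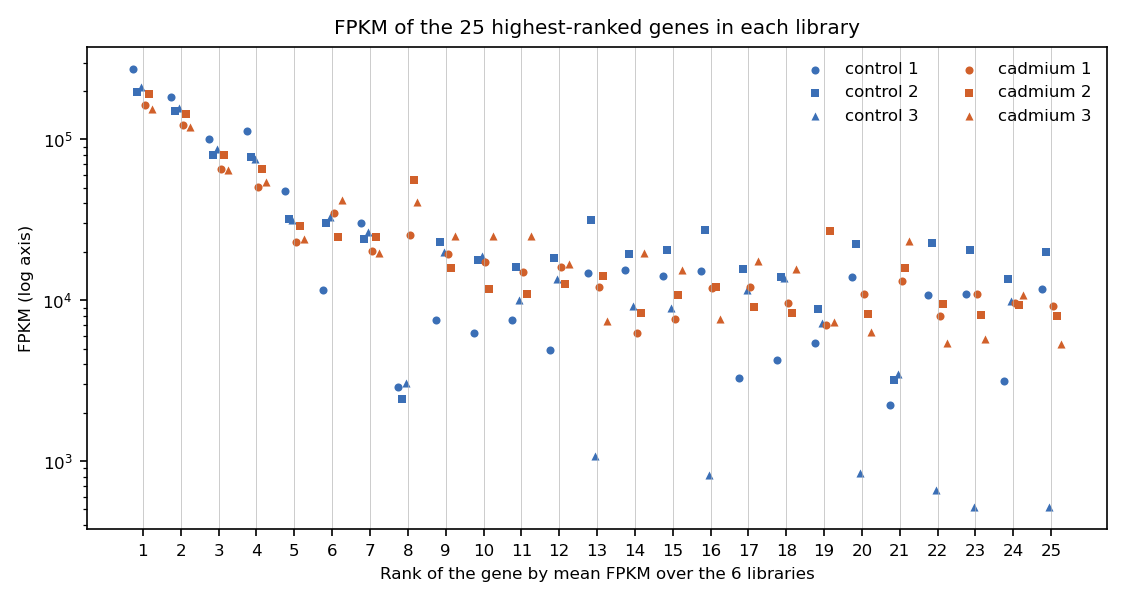
Points give the FPKM (log axis) of the 25 highest-ranked genes in each of the 6 libraries, with controls in blue, cadmium libraries in orange and replicate numbers by shape. At rank 8 the 3 cadmium libraries (25354 to 56240 FPKM) lie above the 3 controls (2435 to 3046 FPKM), and at ranks 13, 16, 20, 22, 23 and 25 control 3 lies far below the other 5 libraries.

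One dominant gene rose with cadmium. TR619_c2_g1, of rank 8 by mean, read 2878, 2435 and 3046 FPKM in controls 1 to 3 and 25354, 56240 and 40517 FPKM in cadmium 1 to 3. It held rank 88, 120 and 77 in the control libraries and rank 6, 5 and 6 in the cadmium libraries, so its place among the 10 highest means comes from the cadmium group. In the fit its log2 change was 3.80 ± 0.35 (SE), which is 13.9-fold, with a Benjamini-Hochberg adjusted p of 0.0193 in limma over all 19862 genes tested. It was the 1 call among the 220 dominant genes (0.455%), where 71 of all tested genes (0.357%) were called, 0.292% higher and 0.0655% lower with cadmium. The call was lost without control 1, 2 or 3 or without cadmium 2 or 3 (limma adjusted p = 0.0767, 0.0960, 0.0707, 0.0678 and 0.125), with log2 fold changes of 3.53 to 3.87. It was also lost with the replicate number as a block, with no filter on low values and after upper-quartile scaling (limma adjusted p = 0.255, 0.136 and 0.0535).

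The gene whose profile was most like it was another dominant gene that was low in every control. It has rank 21 and read 2245, 3168 and 3489 FPKM in controls and 13103, 15906 and 23275 FPKM with cadmium. The groups did not overlap, and the highest control was 3489 against 13103 FPKM for the lowest cadmium library. On the fitted log2 scale it differed by 2.54 ± 0.32 (SE), a 5.80-fold change, and its limma adjusted p was 0.0536, just outside the threshold of 0.05. Its adjusted p was under 0.05 in 2 of the 15 alternative fits, at 0.0330 in limma without a mean-variance trend and 0.0444 after division by the library sum. In the others it was 0.0574 to 0.272 in limma, including 0.109 to 0.187 with a library left out. Pearson's r of log2(FPKM + 1) with TR619_c2_g1 was 0.97 over the 6 libraries. The next most alike, at r of 0.93 each, were 2 genes of lower rank whose means went from 2567 to 2996 FPKM and from 977 to 1310 FPKM.

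No dominant gene fell past the threshold (0 of 220 in limma), where only 0.0655% of all tested genes did. At an unadjusted p under 0.05 in limma, 3 dominant genes fell (1.36%), against 2.4% of all tested genes. The largest fitted fall without overlap was that of the gene of rank 92. It read 4097, 4509 and 3843 FPKM in controls and 1842, 2063 and 2021 FPKM with cadmium, so both groups were tight and well apart. Its log2 fold change was -1.07 ± 0.19 (SE), with a limma adjusted p of 0.129. In the 15 alternative fits its log2 fold change lay between -1.23 and -1.01 and its adjusted p between 0.0894 and 0.559. The genes of rank 94, 130 and 175 followed, with log2 fold changes of -0.80, -0.74 and -0.66 and limma adjusted p of 0.462, 0.424 and 0.550. TR15379_c0_g3, of rank 4, completed the 5 largest falls. It went from 113035, 77142 and 74931 FPKM in controls to 50769, 65069 and 54354 FPKM with cadmium, a log2 difference of -0.62 ± 0.33 (SE; limma adjusted p = 0.641).

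Behind ranks 8 and 21, 3 other genes made up the 5 largest fitted increases without overlap. At rank 218 the levels were 500, 147 and 902 FPKM in controls and 1949, 1555 and 1022 FPKM with cadmium. At rank 167 they were 469, 1189 and 602 against 1328, 1719 and 3880 FPKM, and at rank 52 they were 3293, 3265 and 4545 against 10038, 4864 and 7300 FPKM. In all of them the highest control was close to the lowest cadmium library. Their log2 fold changes were 1.84 ± 0.68, 1.57 ± 0.53 and 0.96 ± 0.34 (SE), with limma adjusted p of 0.474, 0.429 and 0.451. The genes of rank 167 and rank 218 had control means below 1000 FPKM and are among the 220 through their cadmium libraries.

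All 3 cadmium libraries lay above all 3 controls in 18 dominant genes (8.18%), where 10.9% of all tested genes did so. All 3 lay below in 10 (4.55%), where 4.17% of all tested genes did so. At an unadjusted p under 0.05 in limma there were 11 dominant genes (5%), 8 higher and 3 lower, against 9.53% of all tested genes, 7.13% higher and 2.4% lower. The balance depended on the scaling: after median-of-ratios scaling 6 genes (2.73%) lay above and 22 (10%) below, where all tested genes gave 8.31% and 7.78%, and after upper-quartile scaling the counts were 5 (2.27%) and 11 (5%), where all tested genes gave 8.51% and 4.63%. Quantile normalization gave 7 (3.18%) above, against 8.68% of all tested genes, and 6 (2.73%) below, against 5.6%. Division by the library sum gave 21 (9.55%) above, against 11.5%, and 6 (2.73%) below, against 2.79%. Separation above the controls was thus less frequent among the dominant genes than over all tested genes under each scaling. This difference was not tested. The order turned without control 2 and without cadmium 3, where fewer libraries have to separate. Without control 2, 41 of the 220 dominant genes lay above, against 15.04% of all tested genes. Without cadmium 3, 53 of the 220 did so, against 20.9%. Dominant genes stayed less frequent without control 1, control 3, cadmium 1 or cadmium 2. Of the 18 genes above, 8 had a ratio of group means under 1.5.

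The fitted change was above 0 in 160 of the 220 genes (72.7%) and in 61.4% of all tested genes. The median log2 fold change was 0.18 over the dominant genes and 0.11 over all tested genes. After median-of-ratios scaling it was 0.053 and 0.0087, with 124 dominant genes higher and 96 lower. Without control 1 it was 0.072 over the dominant genes, with 129 higher and 91 lower, and 0.11 over all tested genes. Without control 3 it was 0.11 over the dominant genes, with 137 higher and 83 lower, and 0.15 over all tested genes, so the order of these medians turned without either of these controls.

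**Figure D3:**
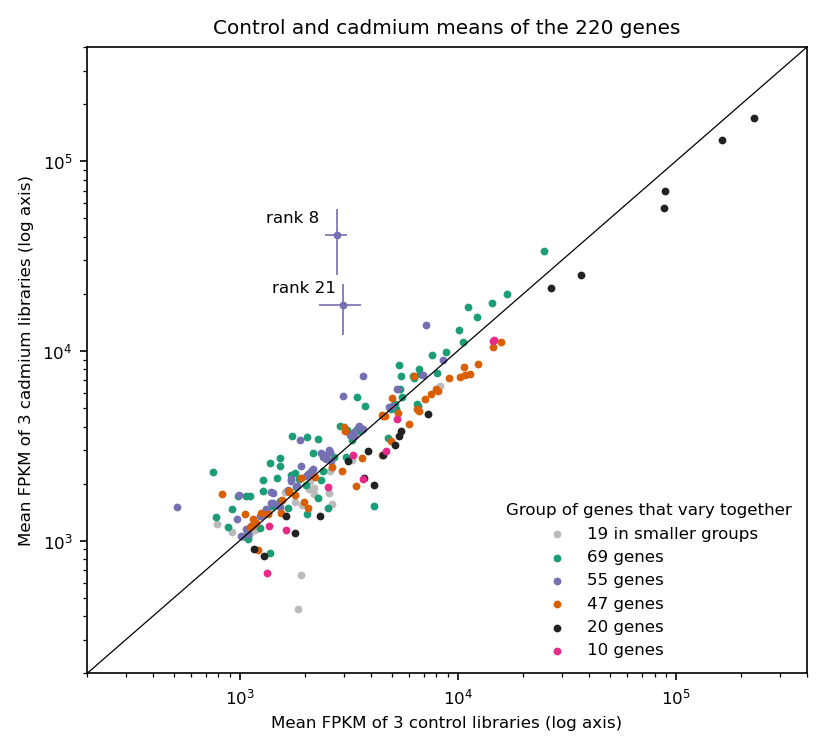
Each point is 1 of the 220 dominant genes, placed by its mean FPKM in the 3 controls and in the 3 cadmium libraries (both log axes), coloured by the group of genes it varies with; the line marks equal means, and bars at ranks 8 and 21 are SDs of 3 libraries. Ranks 8 and 21 stand furthest above the line, at 2786 against 40704 and at 2967 against 17428 FPKM.

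To see how the dominant genes varied together, they were grouped by Pearson's r of log2(FPKM + 1) over the 6 libraries, by average linkage with the tree divided at a distance of 0.5. This gave 5 groups of at least 10 genes, with 69, 55, 47, 20 and 10 genes, and 19 genes in 5 smaller groups. The groups were formed from the values they describe, and all r values share the same 6 libraries, so they are a description with no test. Of the 24090 pairs of dominant genes, 5.35% had an r of at least 0.9, against 1.68% of pairs among the 688 genes averaging 100 to 1000 FPKM. The median r was 0.089 and 0.092.

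**Figure D4:**
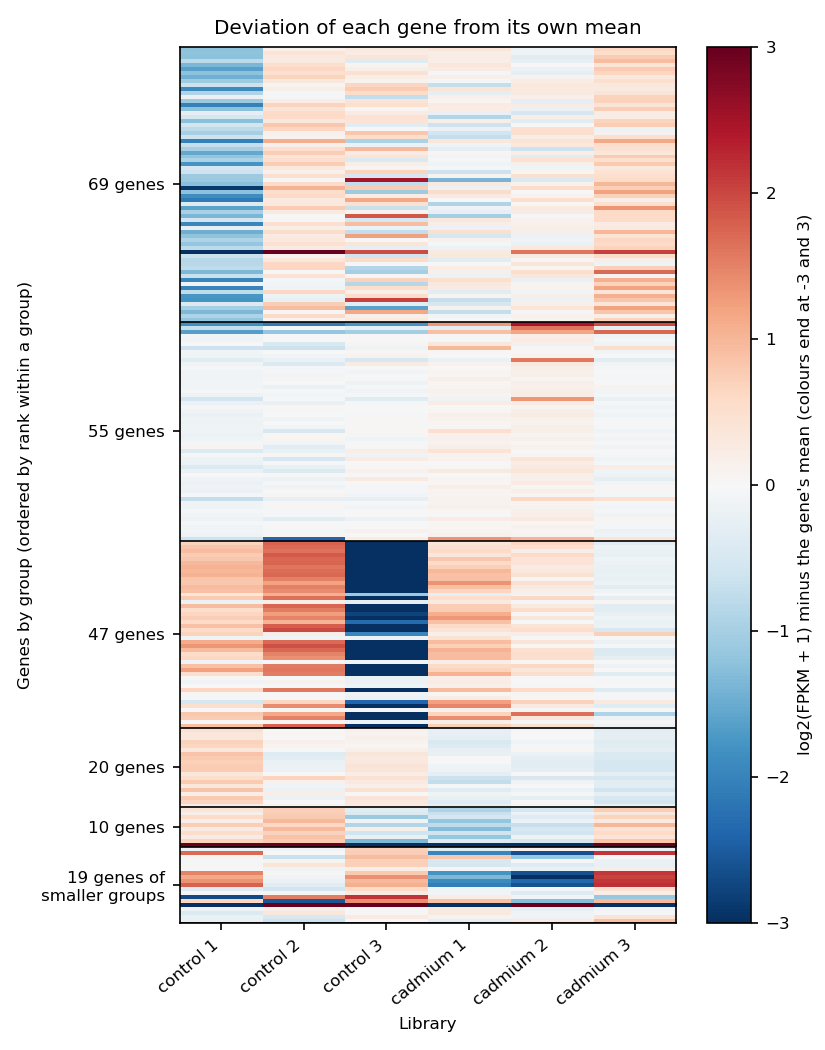
Rows are the 220 dominant genes, arranged in the 5 groups that vary together and the 19 genes of smaller groups, and columns are libraries; colour is log2(FPKM + 1) minus the gene's own mean, ending at -3 and 3. The group of 69 is low in control 1, the group of 55 is nearly even, and most of the group of 47 is low in control 3.

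The group of 47 genes was marked by control 3. In 46 of the 47 control 3 was the lowest library, and in 35 it was more than 4-fold below every other library. The group is uneven in size of movement: 10 of its genes had a highest library less than 2-fold above the lowest. Over these 35 genes, control 3 was 4.58-fold to 29.5-fold below the median of the other 5 libraries, with a median of 17.4-fold. The 35 genes held 12.4% of the FPKM of control 1, 18.7% of control 2 and 0.756% of control 3, and 12.2%, 9.05% and 6.07% of cadmium 1, 2 and 3. Control 2 was the highest library in 31 of the 35. With 14 of the 50 highest means among them, they include some of the most abundant RNAs of the gland.

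Rank 13, the highest of this group, read 14806, 31710 and 1072 FPKM in controls 1 to 3 and 11994, 14160 and 7392 FPKM in cadmium 1 to 3. It held rank 9 in control 1 and rank 188 in control 3. The genes of rank 16 and rank 20 read 15185, 27365 and 819 FPKM and 13845, 22352 and 844 FPKM in the controls. With cadmium they read 11941, 12040 and 7639 FPKM and 10975, 8196 and 6309 FPKM. In all of these, cadmium 3 was the lowest library after control 3, and control 2 the highest. The gene of rank 13 was also set against the geometric mean of the 5 steadiest dominant genes in the same library. It stood at 7.97, 16.7 and 0.577 times that mean in controls 1 to 3. In cadmium 1 to 3 it stood at 6.08, 7.20 and 4.04 times that mean. These 5 genes were chosen as steady on the same FPKM values, and ranks 181 and 191 among them belong to this group. The ratios therefore largely restate the FPKM and are no separate check on scaling.

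So low a level in control 3 took a larger share of the dominant genes than of the other genes. Control 3 was more than 4-fold below every other library in 35 of the 220 (15.9%), in 8 of the 688 genes between 100 and 1000 FPKM in mean (1.16%) and in 275 of all 19862 tested genes (1.38%). Control 1 was that far below the others in 6 dominant genes (2.73%) and in 2.15% of all tested genes. The factor of 4 was chosen after the values were seen, and these shares were not tested against each other. With the group of 47 left out, which also was chosen after seeing the data, rho of control 3 with the other libraries over the remaining 173 genes was 0.68 to 0.77, within the range of 0.65 to 0.93 of the other pairs.

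The cadmium comparison of the group of 47 rested on control 3. With all libraries, 46 of the 47 genes had a fitted change above 0, with a median log2 fold change of 0.55. Without control 3, 11 were above 0 and 36 below, and the median was -0.73. No gene of the group passed the threshold in either fit, with a smallest limma adjusted p of 0.627 and 0.293. The group's summed FPKM was 248090, 407724 and 34088 in controls 1 to 3 and 239972, 189487 and 135296 in cadmium 1 to 3, so the cadmium libraries lay below controls 1 and 2 and above control 3.

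The group of 69 genes was marked by control 1. It includes ranks 6, 9, 10, 11 and 12. Control 1 was the lowest library in 56 of the 69. The group held 7.82% of FPKM in control 1, 19.2% and 20.8% in controls 2 and 3, and 17.7%, 16.6% and 24.8% in cadmium 1, 2 and 3. Rank 6 read 11510, 30151 and 32973 FPKM in controls and 34810, 24539 and 41666 FPKM with cadmium. Control 1 alone lay apart from the others there. The genes of rank 9 and rank 10 had the same shape, with 7493 and 6261 FPKM in control 1 and 11719 to 24970 FPKM elsewhere.

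This group too changed direction with 1 control library. Its median log2 fold change was 0.42 with all libraries, with 56 genes higher and 13 lower, and -0.15 without control 1, with 26 higher and 43 lower. The smallest limma adjusted p was 0.429 and 0.705. Cadmium 3 was the highest library in 37 of the 69.

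The group of 20 genes held the top of the table. It includes ranks 1, 2, 3, 4, 5 and 7, and its share of FPKM was 45.6% in control 1, 29.9% in control 2 and 37.2% in control 3, and 28.3%, 31.6% and 26.2% in cadmium 1, 2 and 3. Control 1 was the highest library in 17 of the 20 and cadmium 3 the lowest in 15. All 20 had a fitted change below 0, with a median log2 fold change of -0.54, and under quantile normalization 17 did, with ranks 1 and 2 at 0 and rank 3 above it. That normalization sets a value by its place in the library. Ranks 1 and 2 keep their places in all 6 libraries, so their change of 0 was fixed in advance. All 20 were below 0 without control 1 (median -0.34), control 2 (-0.74) or control 3 (-0.53). In 9 of the 20 every cadmium library lay below every control, where 4.17% of all tested genes did so. The group was formed from these same profiles, so the 9 are a description. Over all 220 genes the number below was 10, and 6 to 22 after the 4 scalings. None passed the threshold, with a smallest limma adjusted p of 0.129 (rank 92).

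In control 1, the library where the group of 69 was lowest, the group of 20 was highest. Because FPKM is scaled to the fragments of a library, a library in which some abundant genes take more leaves less for the others, and the part of this in either group was not tested.

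The group of 55 genes was the steadiest. Of these, 47 had a highest library less than 2-fold above the lowest, and 39 less than 1.5-fold. The median ratio of highest to lowest library was 1.26, against 3.56 in the group of 69, 27.5 in the group of 47 and 2.28 in the group of 20. Rank 203 was the steadiest of all 220, at 1083, 1105 and 1097 FPKM in controls and 1144, 1163 and 1094 FPKM with cadmium. Rank 56 read 4787, 5025 and 5181 FPKM in controls and 5264, 5280 and 4771 FPKM with cadmium. Ranks 110, 181 and 191 completed the 5 steadiest of the 220, each with a highest library 1.13 to 1.14 times the lowest. Of these, ranks 181 and 191 belong to the group of 47 and not to the group of 55. Ranks 8 and 21 fall in the group of 55, since r reads the shape of a profile and not its size. The coefficient of variation over the 6 libraries was 2.85% at rank 203 and 106% at rank 8. In the fit, 53 of the 55 had a change above 0 and 2 below, with a median log2 fold change of 0.13. With a library left out 49 to 55 were above 0. After median-of-ratios scaling 30 were above and 25 below, and after division by the library sum all 55 were above. In 11 of the 55 every cadmium library lay above every control, where 10.9% of all tested genes did so. As the group was formed from these profiles, the 11 are a description.

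The group of 10 genes split the libraries across the treatment. Controls 1 and 2 and cadmium 3 were high, and control 3 and cadmium 1 and 2 low. Rank 14 read 15300, 19492 and 9215 FPKM in controls and 6264, 8298 and 19657 FPKM with cadmium. Rank 15 followed the same pattern, with 14042, 20507 and 8994 FPKM against 7616, 10828 and 15416 FPKM. The groups overlapped in both. Rank 220, in the same group, was all but absent from 3 libraries, at 0.55 FPKM in control 3, 0.55 in cadmium 1 and 0.52 in cadmium 2, and read 1629, 2377 and 2017 FPKM in control 1, control 2 and cadmium 3.

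**Figure D5:**
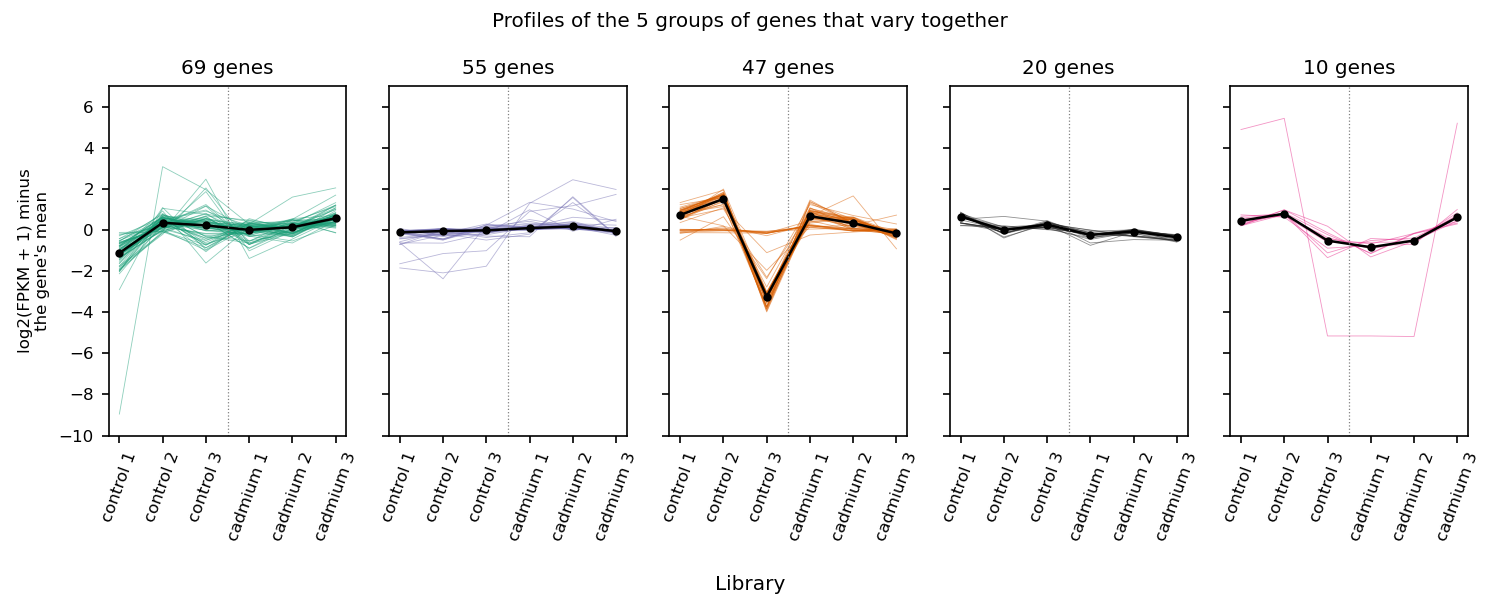
Each panel shows 1 of the 5 groups of dominant genes that vary together, as log2(FPKM + 1) minus the gene's own mean in the 6 libraries, with thin lines for genes and the black line for their median; the dotted line separates controls from cadmium libraries. The medians dip to -1.12 in control 1 for the group of 69 and to -3.24 in control 3 for the group of 47, and stay between -0.12 and 0.17 for the group of 55.

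Presence in some libraries and near absence in others was also seen at ranks 200 and 158. Rank 200 read 3.16, 1936 and 3622 FPKM in controls and 1.97, 1308 and 0 FPKM with cadmium. Rank 158 was listed at 0 in control 1 and read 4184 and 1924 FPKM in controls 2 and 3 and 601, 1500 and 2044 FPKM with cadmium. In neither did presence follow the treatment. After ranks 158, 200 and 220, the widest ratios of highest to lowest library were 61.0 at rank 104 and 50.3 at rank 90, both with control 3 lowest, at 100 and 129 FPKM. Ranks 158 and 200 were the 2 dominant genes listed at 0 in any library, and 9 of the 220 were below 100 FPKM in at least 1.

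Spread between libraries was wider in controls for most dominant genes, but not in every group. The SD of log2(FPKM + 1) over the 3 controls was larger than that over the 3 cadmium libraries in 147 of the 220 genes (66.8%), against 54.8% of all tested genes. The median SD was 0.60 in controls and 0.33 with cadmium, against 0.35 and 0.33 over all tested genes. Without the group of 47, the medians over the other 173 genes were 0.47 and 0.27. The order was the reverse in the group of 55, at 0.090 in controls and 0.13 with cadmium, and in the group of 10, at 0.65 and 0.77. The highest library was less than 2-fold above the lowest in 72 dominant genes (32.7%), and 32.2% of all tested genes were that steady. It was more than 10-fold above in 51 (23.2%), against 14.4% of genes between 100 and 1000 FPKM in mean and 25.03% of all tested genes.

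Few dominant genes came from one assembly component, the set of assembled genes whose IDs are the same up to the last part. The 220 genes came from 213 components, and 12 of them shared 5 components with another dominant gene. Another gene of the component was present anywhere in the table for 16.4% of dominant genes and 24.1% of tested genes. Ranks 1, 2 and 7 share one component, ranks 3 and 5 another, and ranks 4, 86 and 97 share one more. Reads can be divided among such genes, so their separate levels are uncertain. The level of rank 1 was 1.29 to 1.498 times that of rank 2 in the 6 libraries, and that of rank 2 was 5.85 to 6.31 times that of rank 7, so these genes kept nearly the same proportions throughout (r of 0.98 to 0.99).

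Where genes shared a component, their FPKM was also summed. The 3 genes of the first component together read 486991, 372054 and 395344 FPKM in controls and 307436, 358590 and 292808 FPKM with cadmium. The groups did not overlap, and the log2 difference was -0.38, against -0.42 for rank 1 alone. The 3 genes with ranks 4, 86 and 97 together gave a log2 difference of -0.60, against -0.62 for rank 4 alone. The sum moved the value most for ranks 109 and 218, whose summed log2 difference was 0.61, against 1.84 for rank 218 alone. Among the dominant genes, those most like rank 1 over the 6 libraries were rank 2 (r of 0.99), rank 209 (0.98) and rank 7 (0.98). Rank 209, from another component, read 1594, 1008 and 1268 FPKM in controls and 779, 1023 and 682 FPKM with cadmium.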

How the data were processed

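Per the labels' protocols, total RNA of the hepatopancreas was isolated with TRIzol and libraries were made for an Illumina HiSeq platform. The authors deposited FPKM values in 1 table, whose columns carry the sample titles. Assembler, aligner, quantifier and filters: not given in the sources used here. Dominant genes were taken by a mean of at least 1000 FPKM over 6 libraries. They, the gene groups and the alternatives were chosen with earlier results of these data known.

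All genes with at least 1 FPKM in at least 3 libraries entered, on the log2(FPKM + 1) scale, a linear model in limma 3.58.1 under R 4.3.3 (trended eBayes, no covariate, two-sided, Benjamini-Hochberg adjustment over 19862 genes, threshold 0.05). A fold change on this scale understates that of low genes. In data simulated for cadmium against control with 19862 genes, 6.40% of 2-fold and 78.8% of 16-fold changes were recovered. The changed genes were drawn from all tested genes, with noise independent between genes. These rates are therefore not those of the dominant genes, which vary in groups. The text names the 10 highest means, calls, the 5 largest changes each way without overlap, the 5 most and least variable genes and genes next to the minimum. It also names the 3 dominant genes with profiles most like rank 1 and rank 8. Other examples are the highest ranks of a group, chosen after values were seen. Grouping used scipy 1.17.1 and figures matplotlib 3.10.9, in Python 3.11.15 with pandas 2.3.3 and numpy 2.4.6. Alternatives were pseudocount, filter, trend, 4 scalings, a replicate block, 1 library left out, and other minimum levels.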

Additional observations from a re-analysis of the deposited data

How the results depend on the processing

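The count of dominant genes past the threshold, 1 in the fit reported, was 0 with no filter on low values (11 at an unadjusted p under 0.05 in limma), 0 after upper-quartile scaling (6), 2 in limma without the trend, 2 after division by the library sum, and 0 to 1 with a library left out. With the replicate number as a block it was 0 (7 at an unadjusted p under 0.05). Calls over all tested genes moved too, from 71 in the fit reported to 27 with no filter and 61 after upper-quartile scaling. They numbered 134 without the trend, 75 after division by the library sum, 1 with the block and 10 to 43 with a library left out. Nothing in the labels pairs libraries by number. Deviations of same-numbered libraries correlated at 0.028, 0.014 and 0.037 over 19862 genes, and 5 of 6 libraries correlated best with their own number. Deviations within a group sum to 0, so these values depend on each other and cannot decide whether libraries are paired. The median log2 fold change of the 220 genes was 0.076, 0.053 and 0.045 after upper-quartile, median-of-ratios and quantile scaling, and 0.072 to 0.22 with a library left out. Genes with all cadmium libraries above all controls numbered 5, 6 and 7 after these 3 scalings and 18 to 53 with a library left out (13.9% to 20.97% of all tested genes). Genes below numbered 22 after median-of-ratios scaling, 6 after quantile normalization, 6 after division by the library sum and 13 to 29 with a library left out (6.49% to 11.9% of all tested genes), where fewer libraries have to separate. A minimum of 500 FPKM gave 339 genes holding 82.8% of control and 80.9% of cadmium FPKM, and 2000 FPKM gave 136 genes holding 71.9% and 68.7%. With a library left out, 213 to 227 genes qualified, holding 76.4% to 80.6% in controls and 75.1% to 76.5% with cadmium. Quantile normalization took the mean share to 76.8% in controls and 77.3% with cadmium, so the order of the groups turned. It gives every library the same set of values, so shares this close were largely fixed in advance. It also turned rank 3 to a log2 fold change of 0.072, a value set by its place in each library alone. Without control 1, rank 9 turned to -0.13 and rank 10 to -0.098, from ranges of -0.13 to 0.68 and -0.098 to 0.70 over the libraries left out. Control 3 was the lowest library for 37 to 47 of the group of 47 under the 4 scalings, and control 1 for 49 to 58 of the group of 69. Pairs with r of at least 0.9 made up 9.78% after upper-quartile scaling. The cause of these differences was not tested. Depth is unknown, which limits what low values can show.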
